A study of Mus musculus with 12 samples.

Results

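The genes of the unfolded protein response, the integrated stress response and the heat shock response were examined as a list of 39 named genes in cultured mouse neural progenitor cells (mNPCs). All 39 were found by their Ensembl identifiers among the 18911 genes measured, and all 39 were among the 17076 genes tested. The list holds 14 endoplasmic reticulum (ER) chaperones and their partners, 8 stress sensors and transcription factors, 11 targets of ATF4, and 6 heat shock genes. The cells were grown from the hippocampus of newborn (P0) pups and sequenced as poly(A) RNA, with 3 libraries in each of 4 genotypes. Kmt2a+/+ cells carry 2 intact copies of Kmt2a, which encodes a histone H3 lysine 4 methyltransferase. In Kmt2a+/LSL cells a loxP-stop-loxP (LSL) cassette in the first intron interrupts 1 copy, and the other copy is intact. Nes-Cre+/- Kmt2a+/LSL cells carry the same cassette and a Cre recombinase driven by the nestin promoter, which removes the cassette in neural cells before birth. Nes-Cre+/- Kmt2a+/+ cells carry the recombinase and 2 intact copies of Kmt2a. The comparisons addressed whether loss of 1 working copy of Kmt2a, its restoration by Cre, or Cre itself was accompanied by different levels of these stress response transcripts. The labels give neither the sex of the pups nor the number pooled in a culture.

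When unfolded proteins accumulate in the ER, the membrane sensors IRE1, PERK and ATF6 start the unfolded protein response. IRE1 splices the Xbp1 mRNA and ATF6 is cleaved, and both resulting factors induce chaperones and enzymes of protein folding, largely through the ER stress response element (ERSE) of their promoters. PERK phosphorylates the translation factor eIF2α, and so do the other kinases of the integrated stress response, which respond to amino acid shortage, heme lack or viral RNA. Phosphorylated eIF2α slows protein synthesis in general while it favours translation of Atf4, and ATF4 in turn induces genes of amino acid synthesis and uptake. The heat shock response is a separate program, in which heat shock factor 1 induces cytosolic chaperones. Atf4, Xbp1 and ATF6 are regulated largely after transcription, so an mRNA level does not read out their activity. The counts per gene do not separate spliced from unspliced Xbp1.

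The response elements found in the promoters of these genes are shown first. The list was chosen by known roles in these responses, and the elements are known from such genes. The matches are thus a description and not independent of the choice of the list. Promoter windows of the RefSeq annotation (GRCm38.p6), 250 bases before to 50 bases after the transcript start, matched 35 of the 39 genes by symbol, with none used for Manf, Atf6, Slc7a5 and Hspa8. The letters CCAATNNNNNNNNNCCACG were searched on both strands and occurred in the windows of 7 of these 35 genes, all of them ER chaperones, and in those of 0.137% of 27025 genes. Capitals mark the element, and the strand of the gene is printed.
Hspa5: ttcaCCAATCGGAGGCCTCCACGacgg
Hsp90b1: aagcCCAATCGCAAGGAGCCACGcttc
Hsp90b1: agtgCGTGGTGAGGCACGATTGGtgag
Calr: aacgCGTGGTCGACCCTCATTGGccca
Canx: ttgaCCAATCACCACGCTCCACGaaga
Pdia6: gagaCCAATGAAAGGCGGCCACGgcgt
Dnajc3: acaaCCAATCAGCGCCAACCACGaccc
Creld2: ttctCGTGGCGAGCCTCAATTGGtcca
These lie at chr2:34772021-34772047 (plus strand) for Hspa5, chr10:86705634-86705660 (minus strand) and chr10:86705529-86705555 (minus strand) for Hsp90b1, chr8:84847071-84847097 (minus strand) for Calr, chr11:50325796-50325822 (minus strand) for Canx, chr12:17266487-17266513 (plus strand) for Pdia6, chr14:118937823-118937849 (plus strand) for Dnajc3 and chr15:88819516-88819542 (plus strand) for Creld2. The site of Hspa5 is the nearest of them to its start, at positions -65 to -47, and the distal site of Hsp90b1 the farthest, at -212 to -194. The related ERSE-II, in which ATTGG and CCACG stand 1 base apart, was found in the windows of Dnajb11 and Herpud1, and in 0.0444% of all windows.
Dnajb11: ggcgATTGGCCCACGcctg
Herpud1: gctgATTGGGCCACGttgg
They lie at chr16:22857848-22857866 (plus strand) and chr8:94386373-94386391 (plus strand). A heat shock element (GAANNTTCNNGAA) was found in 0.662% of windows and in that of 1 member, Hsph1, at chr5:149636284-149636304 (minus strand), where it reads in the reverse complement.
Hsph1: cagaTTCTGGAAAGTTCtcct
The ATF4 site TGATGNAAT (CARE) was found in 1.08% of windows and the XBP1 site TGACGTGG in 0.714%, and in 0 of the 35 members' windows. Only these letters were searched, with the last base of the CARE fixed as T. Sites with other letters or outside the window would be missed, so these genes may still have such sites. No member's window held more than 1 of the 5 motifs. These are matches of letters, and no binding was measured.

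Library totals ranged from 18280008 to 28596919 estimated counts, at which 3 counts correspond to 0.105 to 0.164 CPM (counts scaled to the library total). Kmt2a was 6916, 7194 and 6720.5 for Kmt2a+/+, 3972, 3979.5 and 3991 for Kmt2a+/LSL, 6777, 7427 and 7167 for Nes-Cre+/- Kmt2a+/+, and 6535, 6814 and 6205 for Nes-Cre+/- Kmt2a+/LSL, in normalized counts (counts divided by library size scaled with edgeR's TMM method), so the Kmt2a+/LSL libraries were lower than all 9 others. The other 3 genotypes lay together in Kmt2a, so this level does not check their labels against each other. Its log2 fold change was -0.80 (SE 0.13) in Kmt2a+/LSL against Kmt2a+/+, with an adjusted p of 0.281 (edgeR), and 0.71 (SE 0.12) in Nes-Cre+/- Kmt2a+/LSL against Kmt2a+/LSL, with an adjusted p of 1. Of the neural progenitor markers, 9 of 9 were above 1 CPM in all 12 libraries, whereas 4 of the 5 microglial and 4 of the 5 fibroblast markers measured were under 1 CPM in all 12. The 7 neuron markers summed to 1081 to 1833 CPM, the 6 astrocyte markers to 2587 to 4793, and the 3 endothelial markers measured to 0.538 to 3.11. Most of the neuron sum was Map2 (998 to 1724 CPM), and every other neuron marker was at 75.1 CPM or less, with Rbfox3 at 0.438 to 2.54. Most of the astrocyte sum was Slc1a3 (1739 to 2971 CPM). These sums therefore do not give the content of a cell type. Replicate 1 of Kmt2a+/+ stood apart. It had the lowest total, counts for 15176 genes against 16205 to 17073 in the other 11 libraries, and a median correlation of log2 CPM with its own genotype of 0.903, against 0.939 to 0.984 for the others. Since it is 1 of the 3 libraries of the common control, fold changes of members and counts over lists against Kmt2a+/+ are given below with and without it. Kmt2a+/+ replicate 3 was the highest of 12 libraries for 16.1% of genes and the lowest for 16.5%. Pearson's r between transcript GC content and the difference in log2 CPM from the mean of the other 11 was 0.53 for it. For replicate 1 it was -0.58, for replicate 2 0.27, and in the other genotypes -0.28 to 0.27. The Kmt2a+/+ group without replicate 1 thus has a GC trend of its own.

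Levels differed widely between members. On the scale of CPM per kilobase of exon, averaged over the 12 libraries, Hspa8, the constitutive cytosolic Hsp70, was highest with 871 (rank 31 of 17076 genes), followed by Calr with 349, Hsp90b1 with 296, Pdia3 with 217, Canx with 204 and Phgdh with 190. Hspa5, which encodes BiP, the main Hsp70 of the ER, had 145, and Psat1, of serine synthesis, 146. The lowest were Atf3 with 0.21, Trib3 with 0.204, Hspb1 with 0.504 and Hspa1a with 0.605 CPM per kilobase. Chac1 with 1.13 and Hspa1b with 1.06 were also low, so that 6 genes best known for strong induction by stress were at the bottom of the list. With replicate 1 of Kmt2a+/+ set aside, the steadiest members over the other 11 libraries were Eif2ak3 and Psat1, with an SD of log2 CPM of 0.09, Dnajb11 with 0.11, Atf6 with 0.12 and Hspa8 with 0.13. The least steady were Hsph1 with 1.81, Atf3 with 1.27, Hspa1a with 0.90, Trib3 with 0.73 and Pdia6 with 0.62.

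**Figure D1:**
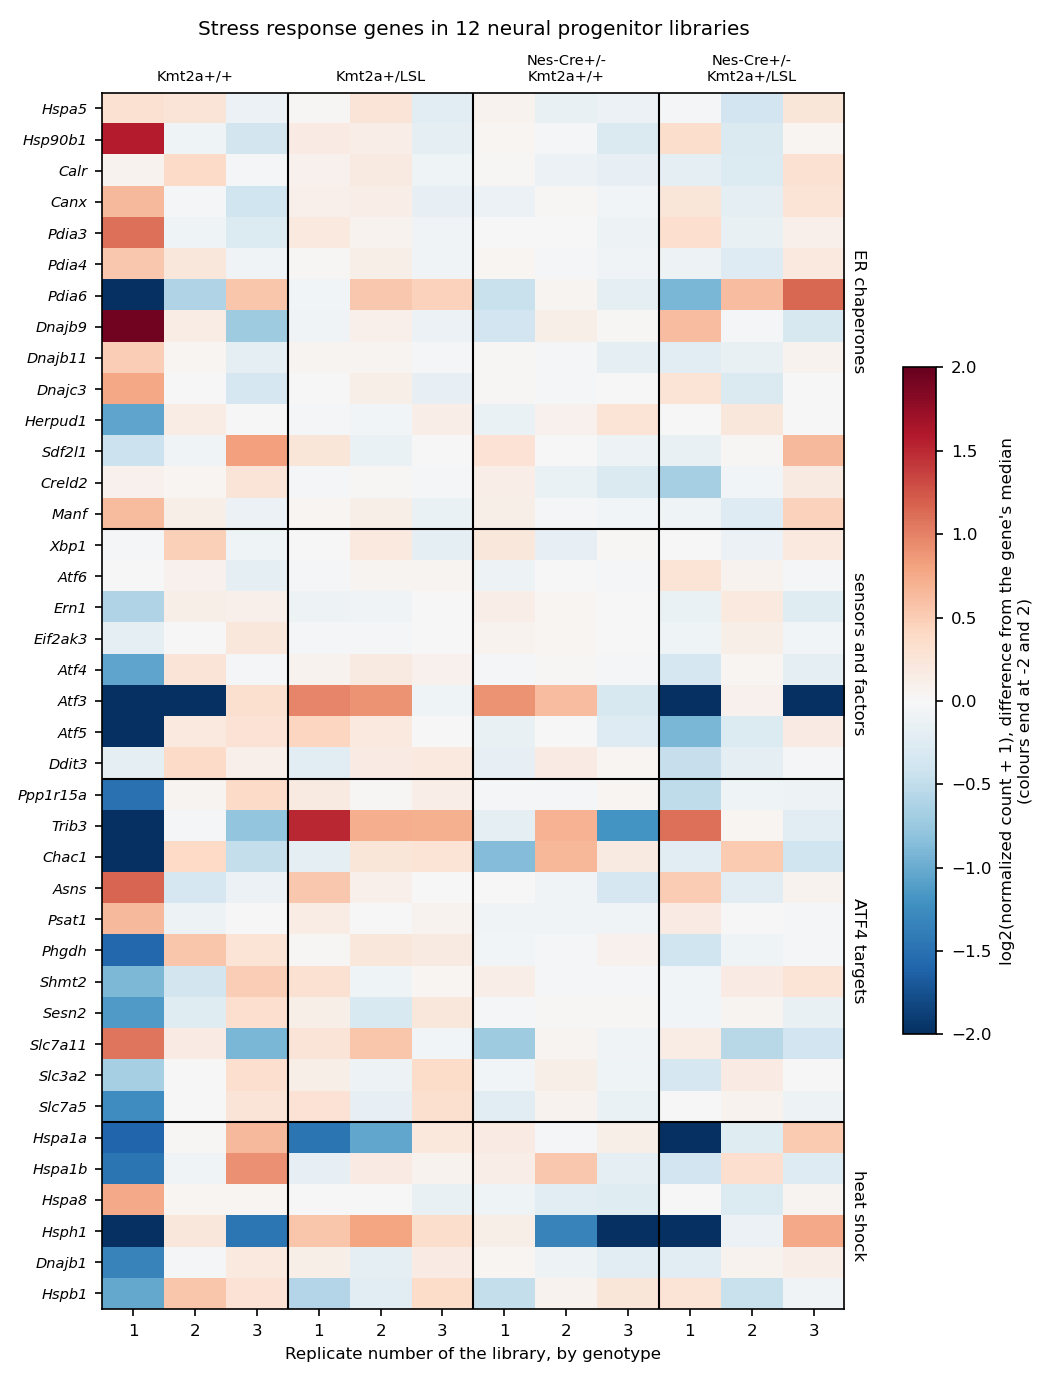
Each row is 1 of the 39 genes, ordered by role, and each column 1 of the 12 libraries, ordered by genotype. Colour gives log2(normalized count + 1) minus the gene's median over the 12 libraries. The column of Kmt2a+/+ replicate 1 carries most of the strong colours, with Dnajb9 and Hsp90b1 high and Hsph1, Pdia6 and Atf5 low, whereas most other squares are pale apart from those of Atf3, Trib3, Hspa1a and Hsph1.

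Among the ER chaperones, Hspa5 (ENSMUSG00000026864, chr2:34771970-34777547, plus strand, GRCm38) had normalized counts of 15795, 15316 and 11777 for Kmt2a+/+, 13000, 15266 and 10973 for Kmt2a+/LSL, 13481, 11581 and 11754 for Nes-Cre+/- Kmt2a+/+, and 12613, 9773 and 15172 for Nes-Cre+/- Kmt2a+/LSL. The 4 genotypes overlapped, and the 12 libraries ranged from 9773 to 15795. Hsp90b1, the Hsp90 of the ER, had 51850, 16536 and 13515 for Kmt2a+/+, 19497, 19239 and 15397 for Kmt2a+/LSL, 18050, 16981 and 14294 for Nes-Cre+/- Kmt2a+/+, and 22370, 14289 and 18015 for Nes-Cre+/- Kmt2a+/LSL. The first Kmt2a+/+ library was 3.03 times the mean of the other 11, which lay within the range of 13515 to 22370. Dnajb9 (ENSMUSG00000014905, chr12:44205559-44210326, minus strand), a J-domain co-chaperone of BiP that also holds IRE1 inactive, had 3396, 991 and 543 for Kmt2a+/+, 852, 954 and 823 for Kmt2a+/LSL, 679, 967 and 907 for Nes-Cre+/- Kmt2a+/+, and 1368, 873 and 715 for Nes-Cre+/- Kmt2a+/LSL. Its first Kmt2a+/+ library was again the highest of all, at 3.86 times the mean of the others, and its other 2 Kmt2a+/+ libraries lay above and below every Kmt2a+/LSL library. Pdia6, a protein disulfide isomerase, went the opposite way, with 111, 629 and 1408 for Kmt2a+/+, 926, 1395 and 1319 for Kmt2a+/LSL, 703, 989.5 and 835 for Nes-Cre+/- Kmt2a+/+, and 507, 1475 and 2120.1 for Nes-Cre+/- Kmt2a+/LSL. Here the first Kmt2a+/+ library was 10.1 times under the mean of the others, and the remaining 2 were 629 and 1408.

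The lectin chaperones Calr and Canx ranged over the 12 libraries from 14834 to 23395 and from 15151 to 31354 normalized counts, and the oxidoreductases Pdia3 and Pdia4 from 10743 to 28077 and from 4061 to 7114. The BiP co-chaperones Dnajb11 and Dnajc3 ranged from 1763 to 2859 and from 2092 to 4514. Without the first Kmt2a+/+ library the range of Calr was the same, and those of the other 5 narrowed to 15151 to 24218 for Canx, 10743 to 16456 for Pdia3, 4061 to 5703 for Pdia4, 1763 to 2144 for Dnajb11 and 2092 to 3211 for Dnajc3. Canx, Pdia3, Pdia4, Dnajb11 and Dnajc3 all had their highest value in that library, and Calr did not. Herpud1, which takes part in ER-associated degradation, was lowest there, at 205 against 391 to 518 elsewhere. Sdf2l1, a partner of ER J-domain proteins, ranged from 286 to 680.1, and Manf, a secreted factor induced by ER stress, from 1973 to 3667. Creld2, another ER stress-induced protein, had 643, 623 and 720.4 for Kmt2a+/+, 598, 612 and 593 for Kmt2a+/LSL, 665, 554 and 494 for Nes-Cre+/- Kmt2a+/+, and 382, 584 and 683 for Nes-Cre+/- Kmt2a+/LSL. All 3 Kmt2a+/LSL libraries of Creld2 were below all 3 Kmt2a+/+ libraries, and the 2 genotypes with nestin-Cre spanned both.

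Of the sensors, Eif2ak3, which encodes PERK, had 1060.2, 1226 and 1416 for Kmt2a+/+, 1191, 1190.0 and 1207 for Kmt2a+/LSL, 1271, 1244 and 1228 for Nes-Cre+/- Kmt2a+/+, and 1149, 1324 and 1168 for Nes-Cre+/- Kmt2a+/LSL. It was the steadiest member, and the genotypes overlapped. Ern1, which encodes IRE1, ranged from 413 to 719 and Atf6 from 1436 to 1971. Xbp1, the target of IRE1, ranged from 834 to 1317. Atf4 (ENSMUSG00000042406, chr15:80255184-80257541, plus strand), the factor at the centre of the integrated stress response, had 868, 2140.1 and 1759 for Kmt2a+/+, 1886, 2044 and 1909 for Kmt2a+/LSL, 1756, 1819 and 1779 for Nes-Cre+/- Kmt2a+/+, and 1423, 1839 and 1596 for Nes-Cre+/- Kmt2a+/LSL. The first Kmt2a+/+ library was the lowest, and the 3 Nes-Cre+/- Kmt2a+/LSL libraries were all below the 3 Kmt2a+/LSL libraries. Atf5, a related factor, had 138, 1432 and 1535 for Kmt2a+/+, 1703, 1439 and 1248 for Kmt2a+/LSL, 1129, 1267 and 1049 for Nes-Cre+/- Kmt2a+/+, and 666, 1044 and 1406 for Nes-Cre+/- Kmt2a+/LSL, with the first Kmt2a+/+ library 9.15 times under the mean of the others. Ddit3, which encodes the proapoptotic factor CHOP, ranged from 172 to 309 with overlap between all genotypes. Atf3, a factor induced by many stresses, was near the detection floor of 3 counts, which is 2.47 to 4.28 normalized counts in these libraries. It had 0, 1.9 and 14 for Kmt2a+/+, 22.4, 21.4 and 10.3 for Kmt2a+/LSL, 21.4, 17.4 and 8.57 for Nes-Cre+/- Kmt2a+/+, and 1.19, 11.7 and 0 for Nes-Cre+/- Kmt2a+/LSL. Atf3 was thus at or below that floor in 2 Kmt2a+/+ and 2 Nes-Cre+/- Kmt2a+/LSL libraries and above it in every library of the other 2 genotypes.

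Of the ATF4 targets, Trib3 (ENSMUSG00000032715, chr2:152337422-152344032, minus strand), a pseudokinase induced late in ER stress, had 0, 7.62 and 4.11 for Kmt2a+/+, 24.2, 13.6 and 13.4 for Kmt2a+/LSL, 6.82, 13.3 and 2.86 for Nes-Cre+/- Kmt2a+/+, and 17.9, 8.08 and 6.55 for Nes-Cre+/- Kmt2a+/LSL. All 3 Kmt2a+/LSL libraries were above all 3 Kmt2a+/+ libraries, and Nes-Cre+/- Kmt2a+/LSL overlapped with both. Nes-Cre+/- Kmt2a+/+ overlapped with Kmt2a+/+ and reached up to the lowest Kmt2a+/LSL library, at 13.3 against 13.4, with 13 counts in each of these 2 libraries. These values rest on 0 to 27 counts in a library. Asns, which makes asparagine, had 2485, 876 and 1023 for Kmt2a+/+, 1609.8, 1187 and 1101 for Kmt2a+/LSL, 1108, 1054 and 879 for Nes-Cre+/- Kmt2a+/+, and 1576, 943 and 1159 for Nes-Cre+/- Kmt2a+/LSL, again with the first Kmt2a+/+ library on top. Of the enzymes of serine synthesis, Psat1 had 15188, 9044 and 9758 for Kmt2a+/+, 10764, 9742 and 10270 for Kmt2a+/LSL, 9319.6, 9256 and 9306 for Nes-Cre+/- Kmt2a+/+, and 10856, 9732 and 9598 for Nes-Cre+/- Kmt2a+/LSL. Phgdh, the first enzyme of the same pathway, had 2887, 12638 and 10425 for Kmt2a+/+, 8723, 10085 and 9751 for Kmt2a+/LSL, 8280.5, 8447 and 9071 for Nes-Cre+/- Kmt2a+/+, and 6493, 8058 and 8420.4 for Nes-Cre+/- Kmt2a+/LSL. In the first Kmt2a+/+ library Psat1 was the highest of 12 and Phgdh the lowest. Ppp1r15a, which encodes GADD34, the phosphatase subunit that reverses eIF2α phosphorylation, had 85.5, 253 and 317 for Kmt2a+/+, 277, 247 and 266 for Kmt2a+/LSL, 239, 237 and 249 for Nes-Cre+/- Kmt2a+/+, and 171, 229 and 226 for Nes-Cre+/- Kmt2a+/LSL. Its Nes-Cre+/- Kmt2a+/LSL libraries were below those of Kmt2a+/LSL and those of Nes-Cre+/- Kmt2a+/+ without overlap.

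The other targets ranged widely, and the first Kmt2a+/+ library lay at an end of most of these ranges. Chac1, which degrades glutathione, ranged from 7.12 to 71.7 normalized counts, with the lowest value in that library. Shmt2, of mitochondrial one-carbon metabolism, ranged from 707 to 1850.3 and Sesn2, a regulator of mTORC1, from 1271 to 3524. Slc7a11, the cystine transporter, ranged from 190.0 to 749.5, and was highest in the first and lowest in the third Kmt2a+/+ library. Slc7a5 and Slc3a2, the subunits of a transporter for large neutral amino acids, ranged from 3812 to 11182 and from 2933 to 5952, and both were lowest in the first Kmt2a+/+ library. In the other 11 libraries their ranges were 7789.7 to 11182 and 3683 to 5952.

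Of the heat shock genes, Hspa8 (ENSMUSG00000015656, chr9:40800984-40810087, plus strand) had 83386, 50522 and 50857 for Kmt2a+/+, 49058, 49409 and 44301 for Kmt2a+/LSL, 46447, 41877 and 41418 for Nes-Cre+/- Kmt2a+/+, and 49693, 40907 and 51384 for Nes-Cre+/- Kmt2a+/LSL. The first Kmt2a+/+ library was 1.78 times the mean of the others. All 3 Kmt2a+/+ libraries were above all 3 of Kmt2a+/LSL and all 3 of Nes-Cre+/- Kmt2a+/+, while Nes-Cre+/- Kmt2a+/LSL overlapped with them. Hsph1 (ENSMUSG00000029657, chr5:149614287-149636376, minus strand), an Hsp110 that exchanges nucleotide on Hsp70, had 0, 352 and 110.2 for Kmt2a+/+, 441, 522 and 384 for Kmt2a+/LSL, 327, 119 and 12.4 for Nes-Cre+/- Kmt2a+/+, and 20.3, 275 and 507 for Nes-Cre+/- Kmt2a+/LSL. It was without a count in the first Kmt2a+/+ library, at least 65.3-fold under the mean of the others when that library is set at the floor of 3 counts, and it was also at 12.4 and 20.3 in 1 library of each genotype with nestin-Cre. The 3 Kmt2a+/LSL libraries were above all 3 of Kmt2a+/+. Hspa1a, the stress-inducible Hsp70, had 15.7, 49.5 and 77.3 for Kmt2a+/+, 17.1, 23.4 and 56.8 for Kmt2a+/LSL, 54.5, 48.1 and 53.3 for Nes-Cre+/- Kmt2a+/+, and 8.35, 41.3 and 71 for Nes-Cre+/- Kmt2a+/LSL. It was low in the first library of 3 genotypes and in the second of Kmt2a+/LSL, with no genotype set apart. Its near-identical copy Hspa1b ranged from 24.2 to 129, the Hsp40 gene Dnajb1 from 345 to 998, and the small heat shock protein gene Hspb1 from 5.7 to 19. All 3 were lowest in the first Kmt2a+/+ library.

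Some members share sequence with other genes, and their estimated counts depend on how reads were divided. The share of a gene's 31-base words that also occur in transcripts of another gene was 70.1% for Hspa1a and 68.1% for Hspa1b, mostly with each other, 56.3% for Phgdh, 55.4% for Hspb1 and 44.8% for Hspa8, mostly with pseudogenes. It was 12.3% for Hsp90b1, 10.8% for Dnajb9, and 7.25% or less for every other member. Hsph1, Trib3, Atf3 and Atf4 shared none.

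**Figure D2:**
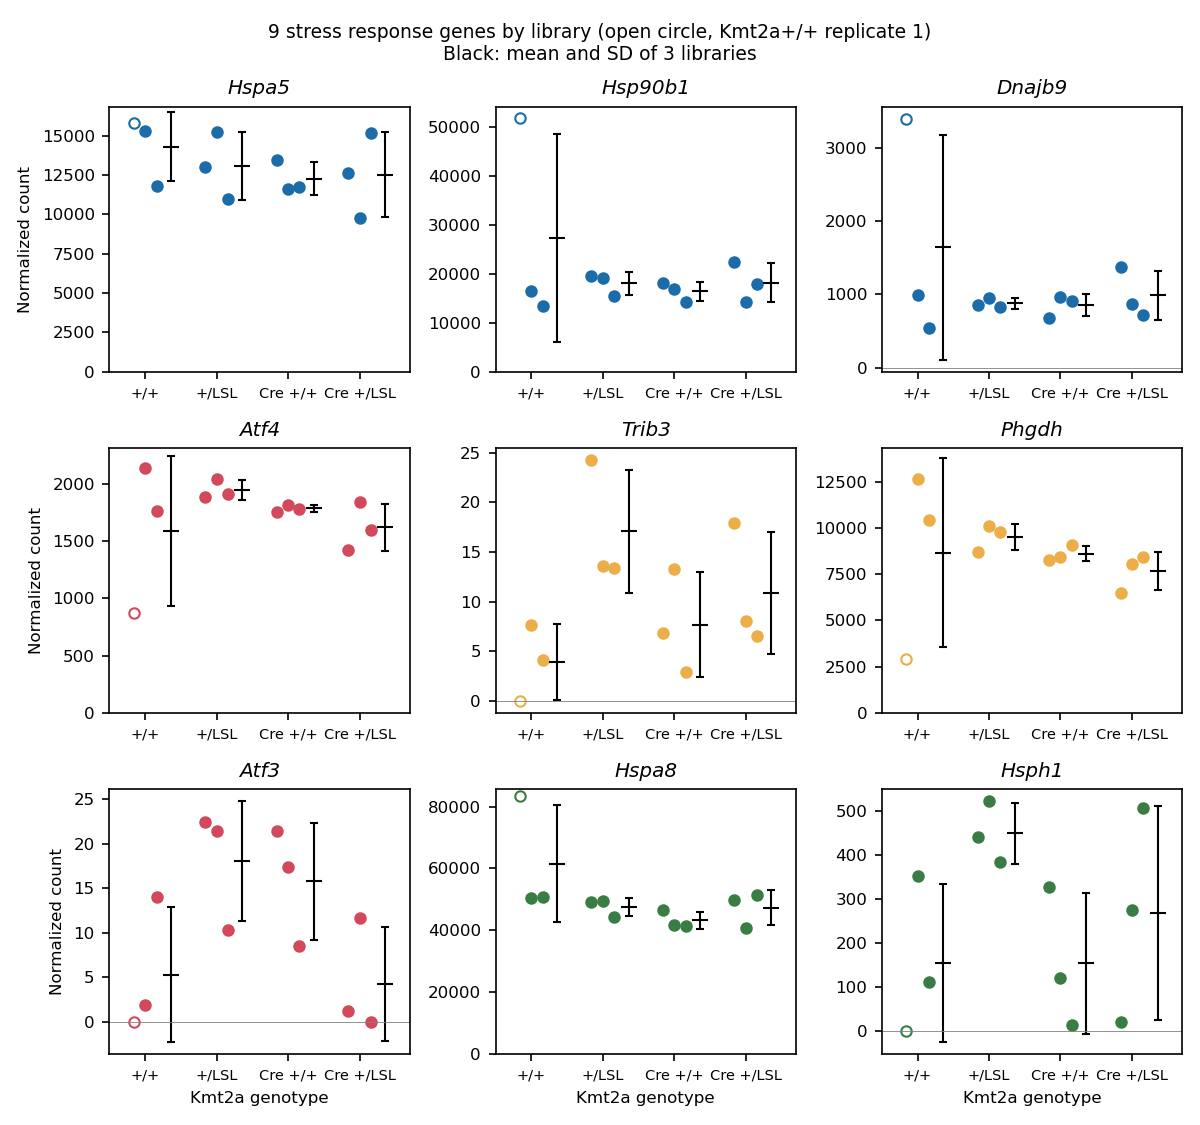
Normalized counts of 9 of the genes, with a filled circle for each library by genotype, an open circle for Kmt2a+/+ replicate 1, and the mean ± SD (n = 3) in black. The open circle lies far above the others in Hsp90b1, Dnajb9 and Hspa8, and below them in Atf4 and Phgdh, and Trib3 is higher in all 3 Kmt2a+/LSL libraries than in those of Kmt2a+/+.

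Between Kmt2a+/LSL and Kmt2a+/+, no member passed the test. Fold changes below are on the log2 scale, and the adjusted p of every member was 1 in the 4 comparisons of genotypes. With edgeR's quasi-likelihood F-test (two-sided, Benjamini-Hochberg adjustment over 17076 genes), 0 of 39 members and 0% of all genes had an adjusted p under 0.05. DESeq2's Wald test and limma-voom called 7 and 2 genes, of which 0 were members. At an unadjusted p under 0.05 there was 1 member, against 1.79% of all genes. It was Trib3, at 17.1 ± 6.19 normalized counts (SD, n = 3) in Kmt2a+/LSL and 3.91 ± 3.81 in Kmt2a+/+. Its log2 fold change was 2.02 (SE 0.84), and without Kmt2a+/+ replicate 1 it was 1.54 (SE 0.73), which did not reach an unadjusted p under 0.05. It did not reach one either without Kmt2a+/+ replicate 3, without Kmt2a+/LSL replicate 1, with limma-voom or with only the 2 compared genotypes in the fit. The adjusted p of Trib3 was between 0.556 and 1 over all alternatives. The members with the next smallest p were Hspa8, with -0.37 (SE 0.21), Dnajb9, with -0.90 (SE 0.53), and Atf3, with 1.65 (SE 1.13). For Dnajb9 the direction turned without Kmt2a+/+ replicate 1, to 0.20, and Hspa8 moved to -0.09 and Atf3 to 1.15. Atf3 was at 3.90 without Kmt2a+/+ replicate 3. Of the genes chosen to stand for each group, Hspa5 had -0.13 (SE 0.20), Atf4 0.29 (SE 0.26), Ddit3 -0.06 (SE 0.23) and Hspa1a -0.57 (SE 0.72). Without the first Kmt2a+/+ library these were -0.05, -0.00, -0.19 and -0.98.

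By group, 12 of 14 ER chaperones were at negative fold changes in this comparison (median -0.15), and 8 of 11 ATF4 targets at positive ones (median 0.24). All genes tested had a median of 0.00, with 8562 positive and 8496 negative. Both splits depended on 1 library. Without Kmt2a+/+ replicate 1, 6 of 14 ER chaperones were negative (median 0.06) and 6 of 11 ATF4 targets positive (median 0.02). The 8 sensors and factors had a median of 0.04 with it and -0.08 without it, and the 6 heat shock genes -0.14 and -0.28. Every Kmt2a+/LSL library was above every Kmt2a+/+ library for 2 members, Trib3 and Hsph1 (2.30% of all genes), and below for 2, Creld2 and Hspa8 (1.76%). The exact permutation test over 3 libraries against 3 cannot go below p = 0.1, the value these 4 genes have. Against the remaining 2 Kmt2a+/+ libraries, 4 members were higher without overlap (Pdia3, Trib3, Asns and Hsph1, against 14.8% of all genes) and 5 lower (Creld2, Ern1, Eif2ak3, Phgdh and Hspa8, against 14.0%). The 2 counts of 4 and 5 of 39 are near these shares. With the third Kmt2a+/+ library left out instead, so that the first made up 1 of 2 controls, 7 members had an unadjusted p under 0.05 (Dnajb9, Hspa8, Hsp90b1, Pdia6, Shmt2, Atf3 and Sesn2), against 6.08% of all genes, and 0 had an adjusted p under 0.05. Without the second, 2 members had an unadjusted p under 0.05 (Hspa8 and Trib3, against 3.52%).

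Kmt2a+/LSL cells were next compared with Nes-Cre+/- Kmt2a+/LSL cells, the comparison that asks what followed removal of the cassette and that uses no Kmt2a+/+ library. Of the 39 members 0, and 0% of all genes, had an adjusted p under 0.05 by the same test. DESeq2 called 7 genes and limma-voom 2, with 0 members. At an unadjusted p under 0.05 there were 0 members, against 1.61% of all genes. Fold changes were negative for 10 of 11 ATF4 targets (median -0.17), beside 8448 of 17076 genes and a median of 0.00. With an offset for GC content in the fit, 9 of 11 were negative and the median was -0.09. Every Nes-Cre+/- Kmt2a+/LSL library was below every Kmt2a+/LSL library for 3 members, Atf4, Ppp1r15a and Phgdh (3.57% of all genes), and above for 0 (3.54%). The log2 fold change of Atf4 was -0.27 (SE 0.26), from 1946 ± 85.8 to 1619 ± 209 normalized counts (SD, n = 3). Ppp1r15a had -0.34 (SE 0.37) and Phgdh -0.31 (SE 0.39). The shared estimate of the spread includes Kmt2a+/+ replicate 1. When it was left out, the fold changes were similar (-0.28, -0.35 and -0.33), and the SE narrowed to 0.12, 0.16 and 0.12. Atf5 then had -0.51 (SE 0.22). In that fit 3 members (Atf5, Atf4 and Phgdh) had an unadjusted p under 0.05, against 3.89% of all genes, and 0 an adjusted one. The smallest p among the members with all libraries was that of Atf3, with -1.98 (SE 1.16), whose Nes-Cre+/- Kmt2a+/LSL libraries held 1, 13 and 0 counts. Without replicate 2 of that genotype, which left 1 and 0 counts, it was at -4.70 and was the 1 member with an unadjusted p under 0.05, against 1.94% of all genes. With limma-voom 2 members had one, Atf3 and Slc7a11, against 4.03% of all genes, and with an offset for GC content 1 had, Slc7a11, against 2.55%. Over the 12 libraries left out in turn the fold change of Atf3 was -4.70 to -1.43. Slc7a11 had -0.51 (SE 0.42), Ddit3 -0.27 (SE 0.23), Hspa5 -0.06 (SE 0.20), Trib3 -0.66 (SE 0.79) and Hspa1a 0.32 (SE 0.72).

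The first Nes-Cre+/- Kmt2a+/LSL library bears on this comparison. It was the lowest of its 3 libraries for Atf4, Ppp1r15a, Phgdh, Atf5 and Ddit3, and against the mean of the other 10 libraries (Kmt2a+/+ replicate 1 apart) it differed by -0.38 for Atf4, -0.56 for Ppp1r15a, -0.52 for Phgdh and -0.97 for Atf5 in log2 CPM. Over all genes, its difference from the mean of all other libraries had a Pearson's r of -0.28 with transcript GC content. The log2 fold changes with each of the 12 libraries left out in turn stayed between -0.37 and -0.18 for Atf4, -0.41 and -0.21 for Ppp1r15a, -0.39 and -0.21 for Phgdh, and -0.77 and -0.26 for Atf5. Ppp1r15a, Phgdh and Atf5 are named here for these values.

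Nestin-Cre on its own was compared in Nes-Cre+/- Kmt2a+/+ and Kmt2a+/+. Here 0 of 39 members and 0% of all genes had an adjusted p under 0.05, DESeq2 called 3 genes and limma-voom 0, with 0 members. At an unadjusted p under 0.05 there was 1 member, against 1.40% of all genes. Normalized counts of Hspa8 were 43247 ± 2780.0 with nestin-Cre and 61588 ± 18878 in Kmt2a+/+ (SD, n = 3), a log2 fold change of -0.51 (SE 0.21). Its adjusted p was 0.564 to 1 over the alternatives. Without Kmt2a+/+ replicate 1 the fold change was -0.23 (SE 0.14), which did not reach an unadjusted p under 0.05, and the libraries still did not overlap. Hspa8 was the 1 member lower in every library (1.53% of all genes), and 0 were higher (2.82%). Next were Dnajb9, with -0.95 (SE 0.53), Hsp90b1, with -0.73 (SE 0.42), and Pdia4, with -0.28 (SE 0.18), which without that library were 0.15, 0.13 and -0.11. Hspa5 had -0.22 (SE 0.20), Atf4 0.17 (SE 0.26), Ddit3 -0.10 (SE 0.23), Trib3 0.87 (SE 0.86) and Hspa1a 0.12 (SE 0.71). Without that library Hspa5 was at -0.15, Ddit3 at -0.23 and Trib3 at 0.38, while Atf4 and Hspa1a turned to -0.13 and -0.29. Of 14 ER chaperones, 12 were negative (median -0.22), and without that library 6 were (median 0.01). This comparison shares its Kmt2a+/+ libraries with that of Kmt2a+/LSL. Against the remaining 2 Kmt2a+/+ libraries, 5 members were lower without overlap (Atf5, Ppp1r15a, Phgdh, Hspa8 and Hspb1, against 13.6% of all genes) and 0 higher (15.7%). Phgdh then had a log2 fold change of -0.43 (SE 0.14) and was the 1 member with an unadjusted p under 0.05, against 6.09% of all genes. With the third Kmt2a+/+ library left out instead, 9 members had an unadjusted p under 0.05 (Dnajb9, Hspa8, Hsp90b1, Shmt2, Pdia4, Atf3, Pdia3, Slc7a11 and Sesn2), against 5.33% of all genes. Without the second there were 3 (Hspa8, Hsp90b1 and Asns, against 4.45%), with limma-voom 3 (Calr, Hspa8 and Phgdh, against 6.37%) and with an offset for GC content 2 (Hspa8 and Hsp90b1, against 2.66%). There were 0 without Nes-Cre+/- Kmt2a+/+ replicate 2 (0.838%), without its replicate 3 (0.885%) and with only the 2 compared genotypes (0.772%).

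The genotypes that share nestin-Cre, Nes-Cre+/- Kmt2a+/LSL against Nes-Cre+/- Kmt2a+/+, differ in the history of 1 Kmt2a copy. Again 0 of 39 members and 0% of genes had an adjusted p under 0.05 (DESeq2 called 3 genes and limma-voom 0, with 0 members), and 0 members had an unadjusted p under 0.05, against 1.11% of all genes. Psat1 was higher in every library (3.10% of all genes) and Ppp1r15a lower (3.58%), by 0.11 and -0.21 on the log2 scale. The smallest p belonged to Atf3, with -1.78 (SE 1.16), Atf6, with 0.16 (SE 0.14), Pdia6, with 0.70 (SE 0.69), and Ddit3, with -0.23 (SE 0.23). Atf3 was at -4.50 without Nes-Cre+/- Kmt2a+/LSL replicate 2, and was then the 1 member with an unadjusted p under 0.05, against 1.73% of all genes, as it was with limma-voom (4.98%). Over the 12 libraries left out in turn it was -4.50 to -1.23. Hspa5 had 0.03 (SE 0.20), Atf4 -0.14 (SE 0.26), Trib3 0.49 (SE 0.81) and Hspa1a -0.37 (SE 0.71). The medians were 0.06 for the ER chaperones, -0.13 for the sensors and factors, -0.03 for the ATF4 targets and 0.02 for the heat shock genes, and 0.00 for all genes.

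The test of the difference itself, the effect of the LSL allele with nestin-Cre minus that without, called 0 of 39 members and 0% of all genes at an adjusted p under 0.05. DESeq2 called 10 genes and limma-voom 0, with 0 members. At an unadjusted p under 0.05 there were 0 members, against 1.73% of all genes. Atf3 came nearest, with a difference of -3.44 (SE 1.62) and an adjusted p of 0.9999, which is the difference between 1.65 without and -1.78 with nestin-Cre. It was -2.92 without Kmt2a+/+ replicate 1, and it rests on 0 to 25 counts in a library. It was -6.16 without Nes-Cre+/- Kmt2a+/LSL replicate 2, and over the 12 libraries left out in turn it was -6.16 to -2.89. In that fit Atf3 was the 1 member with an unadjusted p under 0.05, against 1.97% of all genes, as it was with DESeq2 (1.84%), limma-voom (5.43%) and the GC offset (2.78%). Without Kmt2a+/+ replicate 3 there were 2, Atf3 and Dnajb9, against 4.06%. The adjusted p was 0.723 to 1 over all alternatives. Hspa8 had 0.50 (SE 0.30), Dnajb9 1.12 (SE 0.74) and Trib3 -1.53 (SE 1.16). Without Kmt2a+/+ replicate 1 these were 0.21, 0.02 and -1.05. Hspa5 had 0.16 (SE 0.29), Atf4 -0.43 (SE 0.37), Ddit3 -0.17 (SE 0.32) and Hspa1a 0.20 (SE 1.01), and without it 0.07, -0.14, -0.05 and 0.60.

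**Figure D3:**
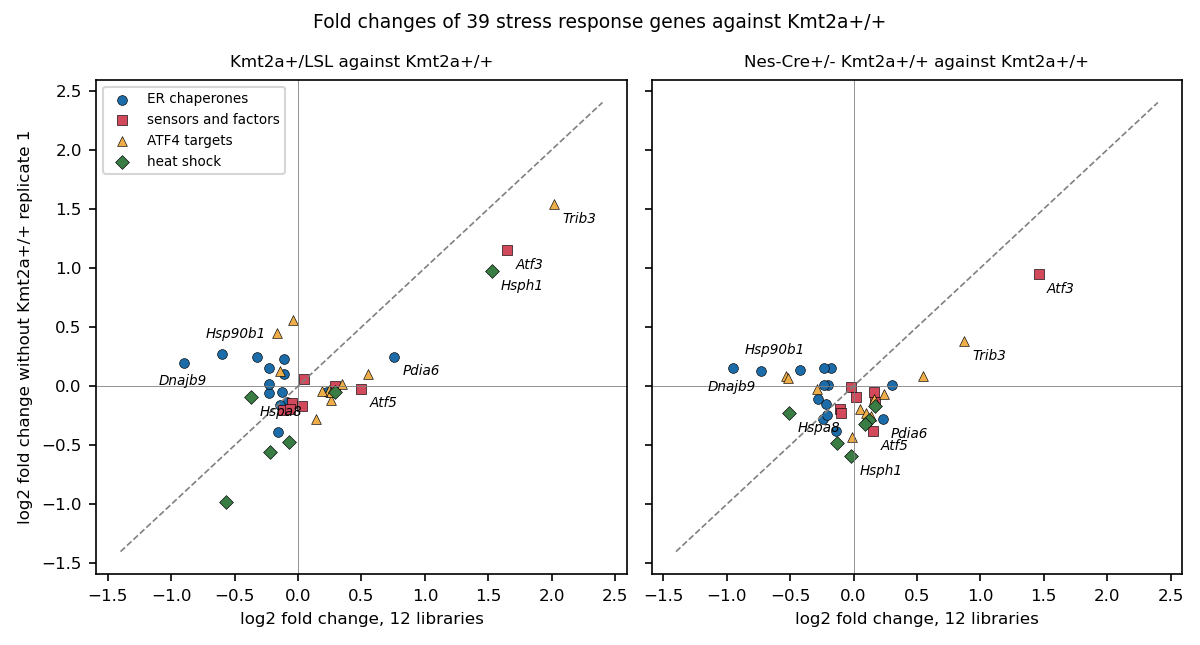
Log2 fold changes of the 39 genes against Kmt2a+/+, from all 12 libraries on the x axis and without Kmt2a+/+ replicate 1 on the y axis, for Kmt2a+/LSL (left) and Nes-Cre+/- Kmt2a+/+ (right). Each point is 1 gene, its shape and colour give its role, and the dashed line marks equal values. Dnajb9 and Hsp90b1 lie left of 0 and above it, and Trib3 stays high in the left panel.

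Kmt2a+/+ replicate 1 was the highest of 12 libraries for 13 members and the lowest for 19, against 30.0% and 34.1% of all genes. Its log2 CPM was over 1 away from the mean of the other 11 for 20 members, against 39.8% of genes. Above were Dnajb9 (1.98), Hsp90b1 (1.62), Slc7a11 (1.20), Asns (1.15) and Pdia3 (1.10). Below were 15, from Hsph1 (-6.49), Pdia6 (-3.19) and Atf5 (-3.14) to Atf4 (-1.05). No other library was over 1 away for more than 4 members. Against the mean of the other 11 libraries, 7535 of 16926 genes were above and 9391 below in this library. By role, 11 of 14 ER chaperones were above that mean, and 8 of 8 sensors and factors, 8 of 11 ATF4 targets and 5 of 6 heat shock genes were below it. Of the 7 genes with an ERSE, 6 were above it (0.05 to 1.62, Calr lowest and Hsp90b1 highest) and Pdia6 was below. Transcripts of one pathway also diverged, as Psat1 was 0.64 above and Phgdh was at -1.64.

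The direction went along with the GC content of the transcripts. Of the 15 members with under 50% GC, 12 were above the mean of the other 11 libraries, the exceptions being Hsph1, Pdia6 and Atf6, and of the 13 with 55% or more, 0 were above and 13 below, with a median of -1.27. Pearson's r between GC content and this difference was -0.50 over the 39 members and -0.58 over 16926 genes, which are values of the same 12 libraries and not independent. The ER chaperones have a median GC content of 48.5% and the ATF4 targets of 56%, against 50.1% for all genes. After a smooth trend on GC content had been taken out of every library, 8 members were still over 1 away, against 23.7% of genes. The 13 genes with 55% GC or more then had a median of -0.03, and the 15 with under 50% went from 0.66 to 0.45. By role, the median of the ATF4 targets went from -1.14 to 0.24, whereas that of the ER chaperones was 0.54 before and 0.55 after. Hsph1, Pdia6, Atf3 and Atf5 were below by more than 1, at -6.74, -3.28, -2.10 and -1.13, and Dnajb9, Asns, Creld2 and Hspb1 above, at 1.20, 1.17, 1.08 and 1.06. In the same library, the 6 oligodendrocyte lineage markers summed to 455 CPM against 865 to 1442 in the other 11, and the 9 neural progenitor markers to 11918 against 5695 to 8028. Of these 9, Fabp7 was at 8240 CPM against 2479 to 4876, while Hes5 (1.97 CPM against 45 to 157), Sox2 (208) and Msi1 (17.7) were lowest of the 12 libraries. Their part in the values of the stress response genes was not tested, and in bulk RNA fewer cells of a type and less RNA per cell cannot be told apart. With GC content as an offset in the fit, 0 members were called in the 5 comparisons. Trib3 then had 2.02 in Kmt2a+/LSL against Kmt2a+/+, and Dnajb9 -0.57. In that comparison the median of the ER chaperones was -0.21 and that of the ATF4 targets 0.09 with the offset.

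**Figure D4:**
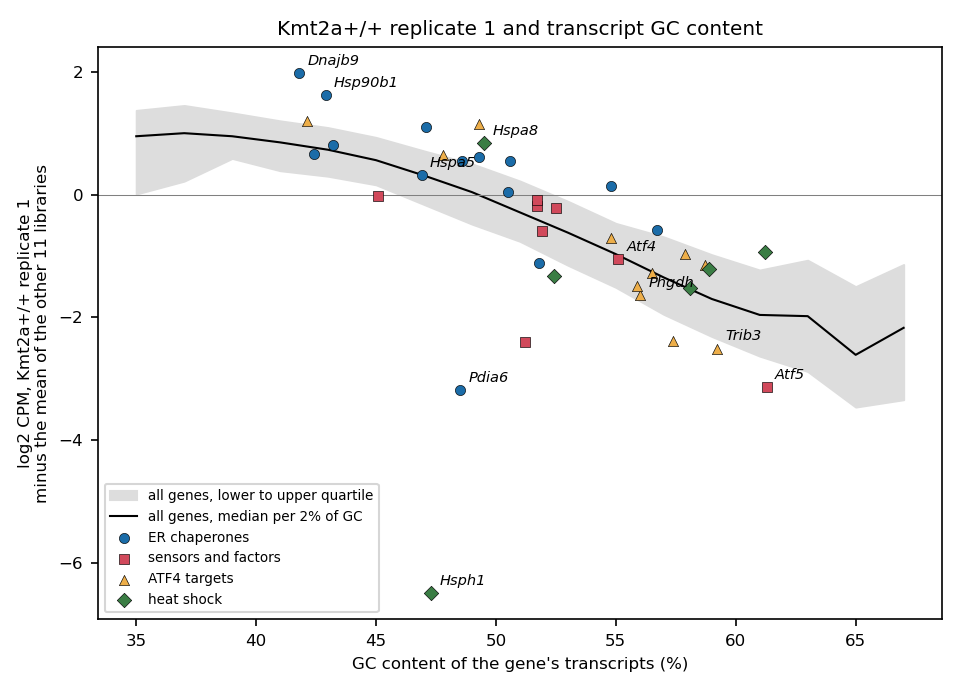
Difference in log2 CPM between Kmt2a+/+ replicate 1 and the mean of the other 11 libraries (y axis) against the GC content of each gene's transcripts in percent (x axis). Points are the 39 genes by role, the line is the median of all genes in each 2% of GC and the band runs from their lower to their upper quartile. Most members follow the falling line, and Hsph1 at -6.49 and Pdia6 at -3.19 lie far below it.

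Within the genotypes, the median SD of log2 CPM of the members was 0.70 for Kmt2a+/+, 0.19 for Kmt2a+/LSL, 0.12 for Nes-Cre+/- Kmt2a+/+ and 0.25 for Nes-Cre+/- Kmt2a+/LSL. For all genes it was 0.65, 0.21, 0.18 and 0.30. Without replicate 1, that of Kmt2a+/+ was 0.21 for the members and 0.23 for all genes. No test of the difference between members and all genes was made.

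Other genes of the same pathways were counted from lists that hold none of the 39. Of 28 further ER quality control genes, 15 were positive and 13 negative in Kmt2a+/LSL against Kmt2a+/+ (median 0.04), and of 37 further genes of the integrated stress response and amino acid metabolism, 25 and 12 (median 0.07). In Nes-Cre+/- Kmt2a+/LSL against Kmt2a+/LSL the latter had 9 positive and 28 negative (median -0.08), and the ER genes 13 and 15 (median -0.03). The comparisons share the Kmt2a+/LSL libraries. In Nes-Cre+/- Kmt2a+/+ against Kmt2a+/+ the 37 genes had 13 positive and 24 negative (median -0.08), and between the genotypes with nestin-Cre 23 and 14 (median 0.04). With the GC offset the counts of the 37 genes in these 4 comparisons were 20 positive and 17 negative (median 0.01), 11 and 26 (median -0.08), 9 and 28 (median -0.14), and 27 and 10 (median 0.06). The imbalance in the first of them was thus smaller with the offset. With edgeR and all 12 libraries, 0 of both lists had an adjusted p under 0.05, and 0 had an unadjusted p under 0.05 in any of the 5 comparisons. Without Kmt2a+/+ replicate 1 the adjusted count was still 0. In Kmt2a+/LSL against Kmt2a+/+ the ER genes then had 16 positive (median 0.06), with 3 higher and 1 lower at an unadjusted p under 0.05, and the 37 genes 28 positive (median 0.12), with 3 higher, against 8.95% of all genes. For nestin-Cre alone the ER genes had 16 positive (median 0.07), with 3 higher at that threshold, and the 37 genes 17 positive (median -0.02), with 2 lower, against 6.09% of all genes. In Nes-Cre+/- Kmt2a+/LSL against Kmt2a+/LSL, 1 of the 37 was lower at that threshold, against 3.89%.

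Among 20 further heat shock genes, 0 had an adjusted p under 0.05 with all 12 libraries. Hspb8 and Hspa2 had an unadjusted p under 0.05 in Kmt2a+/LSL against Kmt2a+/+ (1.79% of all genes), in Nes-Cre+/- Kmt2a+/LSL against Kmt2a+/LSL (1.61%) and in the difference of the LSL effects (1.73%). The median of the 20 genes in Kmt2a+/LSL against Kmt2a+/+ was -0.11 with 6 positive. Without Kmt2a+/+ replicate 1 it turned to 0.20 with 15 positive, and 5 were higher and 1 lower at an unadjusted p under 0.05, against 8.95% of all genes. With the GC offset it was -0.07 with 8 positive. For nestin-Cre alone, leaving out that library turned the median from -0.17 to 0.08, with 2 higher at an unadjusted p under 0.05, against 6.09% of all genes. Hspb8, a small heat shock protein, had normalized counts of 79.8, 114 and 111 for Kmt2a+/+, 260, 127 and 153 for Kmt2a+/LSL, 110, 174 and 112 for Nes-Cre+/- Kmt2a+/+, and 112, 84.4 and 105 for Nes-Cre+/- Kmt2a+/LSL. Its log2 fold change was 0.82 (SE 0.32) in Kmt2a+/LSL against Kmt2a+/+ and -0.84 (SE 0.32) in Nes-Cre+/- Kmt2a+/LSL against Kmt2a+/LSL, each with an adjusted p of 1, and its Kmt2a+/LSL libraries did not overlap with those of either genotype. The first of these fold changes was 0.67 without Kmt2a+/+ replicate 1. Hspa2, best known from germ cells, had no count in any Kmt2a+/LSL library, but normalized counts of 103, 11.4 and 22.2 for Kmt2a+/+, 15.6, 0 and 0 for Nes-Cre+/- Kmt2a+/+, and 154, 0 and 40.4 for Nes-Cre+/- Kmt2a+/LSL. The 13 oxidative stress genes controlled by NRF2 had medians of -0.00, -0.12, -0.16 and -0.00 in the 4 comparisons of genotypes, with 0 at an unadjusted p under 0.05. Without Kmt2a+/+ replicate 1 the medians were 0.19 (11 of 13 positive), -0.13, 0.09 and -0.01, with 4 higher, 3 lower, 1 higher and 1 higher at that threshold, against 8.95%, 3.89%, 6.09% and 3.23% of all genes, and 0 at an adjusted p under 0.05. With the GC offset the 4 medians were -0.08, -0.15, -0.21 and -0.01, with 1 higher at an unadjusted p under 0.05 between the genotypes with nestin-Cre, against 1.82% of all genes. The 9 immediate early genes, which respond fast to stimulation, had 9 positive and 0 negative in Kmt2a+/LSL against Kmt2a+/+ (median 0.31) and 1 positive and 8 negative in Nes-Cre+/- Kmt2a+/LSL against Kmt2a+/LSL (median -0.38). The first of these counts became 7 positive and 2 negative without Kmt2a+/+ replicate 1 (median 0.13), and 6 positive and 3 negative with the GC offset (median 0.03). The second was 1 and 8 with the offset (median -0.23). Fosb, with no count in any Nes-Cre+/- Kmt2a+/+ library and at most 0.994 CPM in any library, was the 1 gene of this list with an unadjusted p under 0.05 with all 12 libraries, between the genotypes with nestin-Cre. The 9 genes summed to 331 to 1061 CPM in the 11 libraries and 439 in Kmt2a+/+ replicate 1. The sum of 1061 is that of Kmt2a+/LSL replicate 3, in which Egr1 was at 665 CPM against 102 to 277 in the other 11. The part of these genes in the values above was not tested.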

How the data were processed

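RNA-seq was analysed from 12 libraries of P0 hippocampal mNPCs, 3 for each of 4 genotypes, grouped by the submitters' labels. The authors deposited estimated counts per gene, made with kallisto 0.48.0 and tximport against mm10/GRCm38 and given as whole numbers without normalization. Such counts divide reads between genes of shared sequence, and the test for counts that had been planned was applied to them unchanged. No column was left out (0 not used). Of 18911 identifiers, 18718 had a symbol.

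As in the study, genes were kept whose counts summed to over 10 and were above 0 in 2 libraries or more. TMM normalization and the quasi-likelihood F-test of edgeR 4.0.16 (R 4.3.3) were applied to all 12 libraries with genotype as the only term, and p-values were adjusted by the Benjamini-Hochberg method over 17076 genes. Log2 CPM used a prior count of 2. Single genes were also compared by the exact permutation test (two-sided, smallest p 0.1). Fold changes are given for members with an unadjusted p under 0.05, or, where these were fewer than 4, for the 4 with the smallest p. They are also given for Hspa5, Atf4, Ddit3, Trib3 and Hspa1a. Members named outside this rule were chosen after their values were seen. The members and the lists of other genes were chosen with earlier results of these data known.

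Alternatives were DESeq2 1.42.0, limma 3.58.1 (voom with quality weights), robust edgeR, DESeq2 size factors, other filters and thresholds, the replicate number as a block, fewer genotypes, and each library left out in turn. An offset for GC content (lowess span 0.3), and DESeq2, limma-voom and non-overlap counts without Kmt2a+/+ replicate 1, were added after seeing the data. Replicate numbers were not used as a pairing in the main fit, since the labels do not say whether same-numbered libraries share a litter or day. The fit was tested on simulated data. The study calls the libraries of a genotype biological replicates, but the sources used here do not say whether each came from a separate pup or culture, so p-values measure the spread between these libraries, and floors of 3 counts cover counting error only.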

Additional observations from a re-analysis of the deposited data

How the results depend on the processing

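In all 121 alternative values for the 5 comparisons, 0 members were called. The count of all genes called, 0 by edgeR, was 7, 7, 3, 3 and 10 with DESeq2 (Kmt2a+/LSL against Kmt2a+/+, Nes-Cre+/- Kmt2a+/LSL against Kmt2a+/LSL, Nes-Cre+/- Kmt2a+/+ against Kmt2a+/+, Nes-Cre+/- Kmt2a+/LSL against Nes-Cre+/- Kmt2a+/+, and the difference of the LSL effects), and 21, 7, 5, 5 and 7 with DESeq2 without Kmt2a+/+ replicate 1. In the first comparison it was 2 with limma-voom, 2 with the GC offset and 0 to 2 with 1 library left out. In the second it was 2 with limma-voom (also without that library), 1 with the GC offset, 1 at an adjusted p under 0.1 and 0 to 1 with 1 library left out, and in the third 1 at an adjusted p under 0.1. Of 873 alternative values for 40 fold changes of single members, 841 kept their direction and 32 turned, 21 of them by leaving out a library. The cause was not tested. With limma-voom, Dnajb9 was at 0.07 and Atf4 at -0.01 in the first comparison, Dnajb9 at 0.10, Hsp90b1 at 0.02, Atf4 at -0.13 and Hspa1a at -0.15 in the third, Hspa5 at -0.01 in the fourth, and Dnajb9 at -0.10 in the difference. With the GC offset, Hspa1a was at -0.04 in the third and Hspa5 at -0.00 in the fourth. With 1 library left out, the ranges that crossed 0 were -1.32 to 0.20 for Dnajb9, -0.00 to 0.57 for Atf4 and -0.19 to 0.10 for Ddit3 in the first comparison, and -0.22 to 0.09 for Hspa5 and -0.36 to 0.99 for Hspa1a in the second. In the third they were -1.37 to 0.15 for Dnajb9, -1.06 to 0.13 for Hsp90b1, -0.13 to 0.44 for Atf4, -0.23 to 0.05 for Ddit3 and -0.29 to 0.65 for Hspa1a. In the fourth they were -0.13 to 0.18 for Hspa5, -0.06 to 1.14 for Trib3 and -1.05 to 0.11 for Hspa1a, and in the difference -0.00 to 0.31 for Hspa5 and -0.48 to 0.88 for Hspa1a.

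Whether same-numbered libraries share a litter or day is not stated, and the correlations given here do not decide it. Deviations of same-numbered libraries correlated by 0.0844 on average (18 pairs, -0.0717 to 0.416, 5 over 0.1), against -0.0407 for 36 pairs of different number. With the number as a block, 0 genes were called, 246, 264, 220, 179 and 278 genes had an unadjusted p under 0.05, and Hspa1a turned to -0.29 in the difference of the LSL effects. With a biological coefficient of variation of 0.3676, and with 0 to 27 counts in a library for Trib3 and Atf3, the precision for the low members is small.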
